A study of Homo sapiens with 8 samples.

Results

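The genes described are 10 that are commonly read as the transcriptional output of the ERK pathway, namely DUSP4, DUSP6, SPRY2, SPRY4, SPRED1, ETV4, ETV5, PHLDA1, EGR1 and FOSL1. They were chosen by symbol, and all 10 were found among the 19952 gene symbols listed in each library. RNA was sequenced from 2 human uveal melanoma cell lines in 8 libraries, 2 in each of 4 groups. The 92.1 cells carried either a hairpin against the cytidine deaminase APOBEC3B (A3B), named shA3B, or the control shCtrl, an empty vector. The MEL290 cells either overexpressed A3B, named A3B OE, or were controls named NC. Constructs were delivered with lentivirus and the cells were selected with puromycin, and which of the listed hairpins the sequenced 92.1 cells carried is not given in the sources used here. Nothing says that the replicates were separate cultures, so p-values measure the spread between these libraries, which may be technical.

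ERK is the last kinase of the RAS, RAF, MEK and ERK cascade, which carries growth signals from receptors to the nucleus. Active ERK raises a small group of transcripts, and several of these encode inhibitors that damp the same cascade, so the abundance of such transcripts is widely used as a readout of the pathway. In uveal melanoma the cascade is known to be driven mostly from G proteins of the GNAQ family, through protein kinase C and the exchange factor RASGRP3. Transcript levels are not ERK activity, and no phosphorylated protein was measured in these libraries.

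A classic link between ERK and an output gene is the CArG box, the site bound by serum response factor, at which ERK acts through ETS partner proteins on EGR1. The stretch before the EGR1 start site is shown because, of the members with a promoter window, EGR1 was the 1 with this site. In the RefSeq promoter window of GRCh38.p14, at chr5:138465359-138465420 on the plus strand, from 120 to 59 bases before the start site, a pair of CArG boxes was found, printed in capitals.
EGR1: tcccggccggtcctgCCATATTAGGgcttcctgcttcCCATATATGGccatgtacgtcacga
Windows from 250 bases before to 50 bases after a start site were held for 6 of the 10 members, 8 windows in all, and EGR1 was the 1 member of these with a CArG box, which 1.29% of all 35116 windows hold. The AP-1 site TGANTCA, the ETS site CCGGAAG and the cyclic AMP response site TGACGTC, searched on both strands, were in 0 of the 6 members' windows and in 7.71%, 10.3% and 3.45% of all windows. The searches covered these exact letters, so a 0 does not mean that other forms of the sites are absent. A match of letters is a description and not a bound site.

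Values are FPKM, fragment counts scaled for transcript length and for the size of the library, so that levels may be set side by side between genes. The summed FPKM ran from 609934 to 677946 per library and read depth is unknown. A3B was at 36.0 and 32.3 FPKM in the shCtrl libraries, 1.98 and 2.37 in shA3B, 2.67 and 2.19 in NC and 28.4 and 27.5 in A3B OE, so the targeted gene moved as labelled in all 8. Both lines are named as uveal melanoma cells in the study's methods. In 92.1 all 8 melanocyte markers were at 1 FPKM or more in both libraries of each group, with a sum of 7116 to 8713 FPKM per library. In MEL290 the same 8 markers summed to 15.2 to 20.6 FPKM, most of it MITF, at 13.7 to 19.6 FPKM. TYR was listed at 0 in all 4 libraries, and SOX10 was listed at 0 in both NC libraries. The markers other than MITF were thus at or near 0 in that line, with PMEL the highest of them at up to 1.31 FPKM. Of 6 fibroblast markers, 2 were at 1 FPKM or more in both libraries of each group, COL1A1 with LUM in 92.1 and COL1A1 with PDGFRB in MEL290, while COL1A2, COL3A1 and DCN were under 0.3 FPKM in all 8 libraries. The fibroblast list summed to 5.56 to 7.87 FPKM in 92.1 and to 44.1 to 60.7 FPKM in MEL290, and its part in the differences between the lines was not tested. Of 6 keratinocyte markers 1 or 2 and of 5 immune markers 1 reached this level in each group, with sums of 5.88 to 29.8 FPKM and 14.5 to 35.0 FPKM, and of 3 endothelial markers 0 did, with sums up to 0.115 FPKM. Most of the keratinocyte sum was KRT10, at 23.0 to 28.8 FPKM in 92.1 and 4.82 to 8.34 in MEL290, and KRT14 was at 1.98 and 2.36 in NC. Nearly all of the immune sum was CD68, at 14.5 to 35.0 FPKM. The keratinocyte markers KRT5 and KRT1 and the immune marker CD3E were listed at 0 in all 8 libraries. In bulk RNA, fewer cells of a type and less RNA per cell cannot be told apart.

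For the members other than EGR1, the log2 difference between the control cells of the 2 lines was larger in size than that with A3B in either line. In 92.1 shCtrl cells the leading members were DUSP4, ETV4, ETV5 and PHLDA1, at means of 72.9, 59.8, 49.4 and 49.2 FPKM, and FOSL1 was the lowest of the 10. In MEL290 NC cells FOSL1 was the highest, at 35.3 FPKM, and ETV4, second in 92.1, was the lowest, at 0.865 FPKM. Tested with limma on log2(FPKM + 1), with Benjamini-Hochberg adjustment over all genes tested and a threshold of 0.05, 8 members were lower and 1 was higher in NC than in shCtrl cells. The lines differed in most genes, since 73.0% of the 12352 genes tested were called between them, 39.3% lower and 33.7% higher, so a called difference between the lines is the common state of a gene. In 9 of the 10 members the libraries of the 2 controls did not overlap, 8 lower and 1 higher in NC, where this held for 87.3% of all genes tested, 46.6% lower and 40.7% higher. The median log2 difference was -1.86 over the members and -0.08 over all genes tested. Cell line and vector cannot be told apart in this comparison, and the deposited tables of the 2 lines name their gene column differently, so whether they were made in 1 run is not known.

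**Figure D1:**
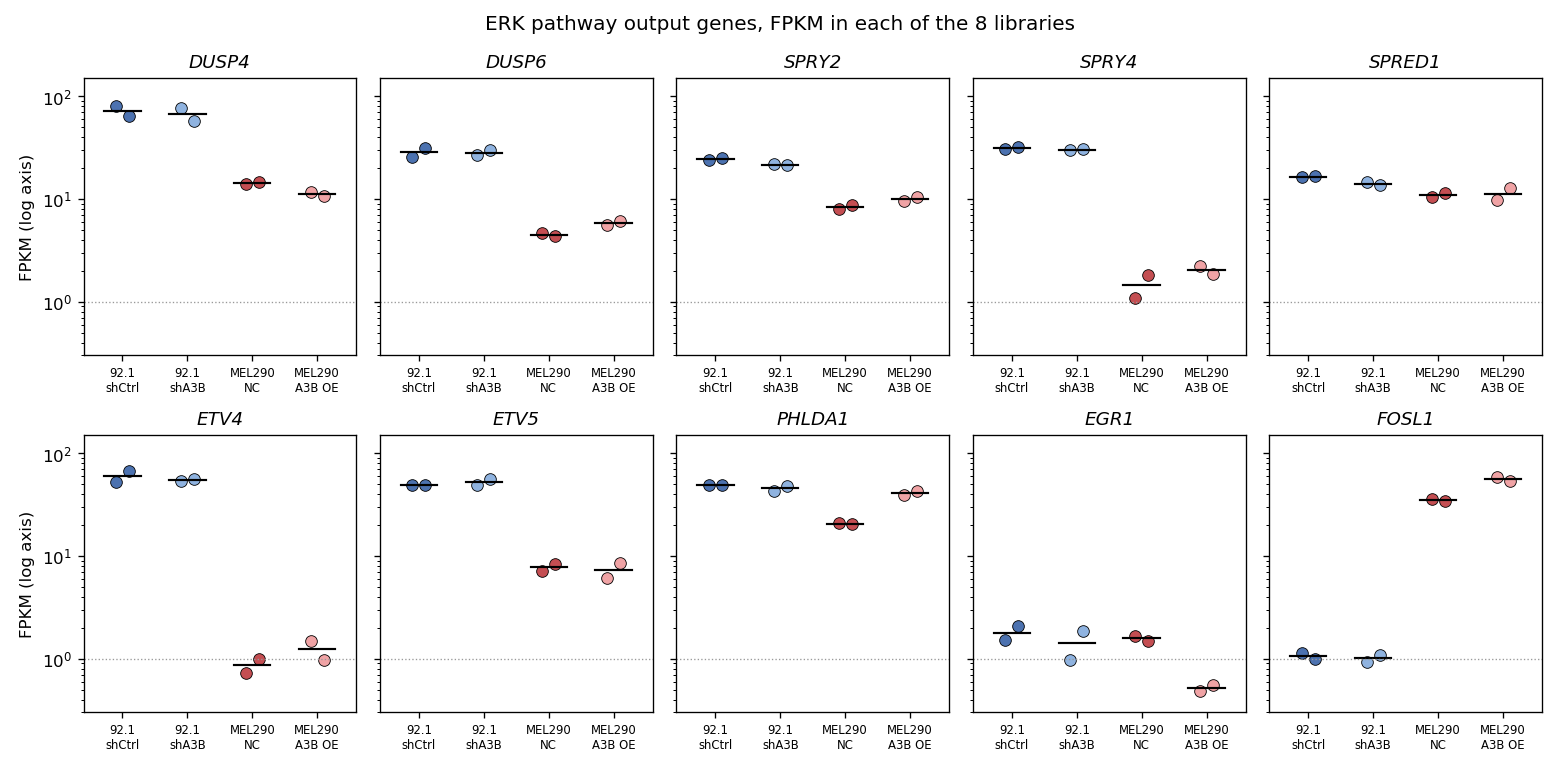
FPKM (log axis) of the 10 members in each library of the 4 groups, 2 points a group, with the group mean as a black bar and 1 FPKM as a dotted line. DUSP4, DUSP6, SPRY2, SPRY4, SPRED1, ETV4 and ETV5 lie higher in all 4 libraries of 92.1 than in all 4 of MEL290, and so does PHLDA1 by a narrow margin, 42.85 against 42.78 FPKM, while FOSL1 lies the other way and EGR1 overlaps between the lines. The NC and A3B OE libraries of MEL290 lie apart for DUSP4, DUSP6, SPRY2, SPRY4, PHLDA1, EGR1 and FOSL1.

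The feedback inhibitors among the members stood on the 92.1 side. DUSP6, a phosphatase that removes phosphate from ERK in the cytoplasm (chr12:89347235-89352501, minus strand), was at 25.7 and 31.4 FPKM in shCtrl, 26.8 and 30.1 in shA3B, 4.63 and 4.37 in NC and 5.66 and 6.17 in A3B OE. All 4 libraries of 92.1 were above all 4 of MEL290, and the shCtrl mean was 6.34 times the NC mean (log2 difference -2.42, standard error 0.14, adjusted p = 5.3e-05, limma). DUSP4, its relative in the nucleus (chr8:29333064-29350684, minus strand), was at 80.7 and 65.1 FPKM in shCtrl, 77.4 and 57.5 in shA3B, 14.2 and 14.6 in NC and 11.7 and 10.8 in A3B OE. The ratio of the control means was 5.07, and in both 92.1 groups replicate 1 was the higher (log2 difference -2.26, standard error 0.13, adjusted p = 4.7e-05, limma).

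The Sprouty proteins SPRY2 and SPRY4 restrain signalling between receptors and RAF, and SPRED1 brings neurofibromin, which switches RAS off, to the membrane. SPRY4 (chr5:142310427-142326455, minus strand) was at 30.7 and 32.4 FPKM in shCtrl, 29.8 and 30.7 in shA3B, 1.08 and 1.82 in NC and 2.23 and 1.87 in A3B OE. The shCtrl mean was 21.7 times that of NC (log2 difference -3.75, standard error 0.18, adjusted p = 2.7e-05, limma), a wide gap beside that of its paralog SPRY2. SPRY2 (chr13:80335976-80341126, minus strand) was at 24.2 and 25.2 FPKM in shCtrl, 22.1 and 21.3 in shA3B, 8.003 and 8.70 in NC and 9.68 and 10.5 in A3B OE, a ratio of control means of 2.96 (log2 difference -1.46, adjusted p = 0.00014, limma). SPRED1 (chr15:38252836-38357249, plus strand) was the flattest member that differed between the controls, at 16.2 and 16.8 FPKM in shCtrl, 14.6 and 13.7 in shA3B, 10.5 and 11.5 in NC and 9.74 and 12.8 in A3B OE (log2 difference -0.54, standard error 0.11, adjusted p = 0.0073, limma).

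ETV4 and ETV5 are ETS transcription factors of the PEA3 group, made in response to ERK and acting on its targets. ETV4 (chr17:43527844-43579620, minus strand) was at 52.8 and 66.8 FPKM in shCtrl, 54.4 and 55.9 in shA3B, 0.727 and 1.00 in NC and 1.49 and 0.975 in A3B OE. It had the largest ratio of control means among the 10, 69.2, with NC at or near the 1 FPKM needed for testing (log2 difference -5.02, standard error 0.17, adjusted p = 9.4e-06, limma). ETV5 (chr3:186046314-186110318, minus strand) was at 49.9 and 48.9 FPKM in shCtrl, 49.7 and 55.8 in shA3B, 7.22 and 8.30 in NC and 6.09 and 8.48 in A3B OE. Its ratio was 6.37 (log2 difference -2.53, standard error 0.11, adjusted p = 2.2e-05, limma), so that near-equal levels in 92.1 stood against a clear excess of ETV5 over ETV4 in MEL290.

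FOSL1 went against the other called members. It encodes FRA-1, a partner of JUN in the AP-1 transcription factor whose protein ERK stabilizes (chr11:65892049-65900573, minus strand). It was at 1.14 and 0.991 FPKM in shCtrl, 0.922 and 1.10 in shA3B, 35.9 and 34.7 in NC and 58.5 and 54.1 in A3B OE, so the NC mean was 33.0 times that of shCtrl (log2 difference 4.13, standard error 0.13, adjusted p = 7.5e-06, limma). EGR1, an immediate-early zinc finger transcription factor (chr5:138465479-138469303, plus strand), was low throughout and was not called between the controls, at 1.52 and 2.07 FPKM in shCtrl, 0.964 and 1.85 in shA3B, 1.68 and 1.49 in NC and 0.481 and 0.561 in A3B OE (log2 difference -0.11, 95% confidence interval -0.47 to 0.26). PHLDA1, a pleckstrin homology-like protein induced by growth signals (chr12:76025447-76031776, minus strand), was at 49.5 and 48.9 FPKM in shCtrl, 42.9 and 48.4 in shA3B, 20.8 and 20.5 in NC and 39.0 and 42.8 in A3B OE, with a ratio of control means of 2.38 (log2 difference -1.21, adjusted p = 0.00011, limma).

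In the annotation used here, exons of DUSP6, ETV4 and PHLDA1 overlap exons of a gene on the other strand, DHX8 for ETV4, PHLDA1-AS1 for PHLDA1 and a gene without a symbol for DUSP6. Whether strand was used in counting is not given in the sources used here, so reads of the overlapping parts may belong to either gene.

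**Figure D2:**
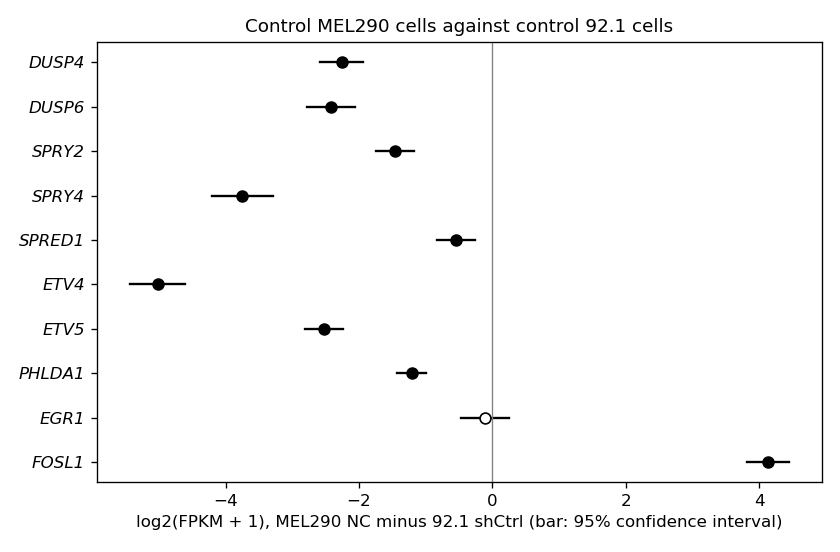
Difference in log2(FPKM + 1) between MEL290 NC and 92.1 shCtrl cells for each member, with its 95% confidence interval, filled where called. SPRY4 and ETV4 have the lowest values, -3.75 and -5.02, FOSL1 lies at 4.13, and the interval of EGR1 crosses 0.

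Among 14 paralogs of the members, 10 were tested between the controls, with a median log2 difference of -0.0053. Of these, 4 were called higher and 3 lower in NC cells, where 33.7% and 39.3% of all genes tested were. DUSP9, a further ERK phosphatase, was at 33.9 and 43.7 FPKM in shCtrl and listed at 0 in both NC libraries. FOSL2, the paralog of FOSL1, was at 1.64 and 2.59 FPKM in shCtrl and 53.5 and 54.0 in NC, so both FOS-like genes were high in MEL290. SPRED2, the paralog of SPRED1, was lower in NC cells (log2 difference -1.07, adjusted p = 0.00035, limma), and SPRED3 was higher (2.62, adjusted p = 6.2e-05, limma). SPRY1 was lower (log2 difference -1.51) and DUSP5 and PHLDA3 were higher (0.96 and 0.76). DUSP9 and SPRED3 reached the 1 FPKM needed for testing in their higher group alone, so their calls add no support to the difference.

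The cascade itself was split evenly. Of 18 genes from adaptors to kinases, all 18 were tested between the controls, with a median log2 difference of 0.09. Of these, 7 were called higher and 7 lower in NC cells, where 33.7% and 39.3% of all genes tested were. RASGRP3, the exchange factor that links G protein signalling to RAS, had the largest difference, at 65.5 and 54.8 FPKM in shCtrl and 4.54 and 3.26 in NC (log2 difference -3.65, adjusted p = 2.6e-05, limma). SHC1, the adaptor that links receptor tyrosine kinases to RAS, had the largest difference the other way, at 42.5 and 44.5 FPKM in shCtrl and 165 and 172 in NC (1.93, adjusted p = 1.6e-05, limma). GRB2, SOS2, NRAS, RASA1, BRAF and MAP2K1 were also higher, at 0.36 to 1.43 on the log2 scale. Among the others that were lower, SOS1, HRAS, MAP2K2 and MAPK3 were at -1.70 to -0.34.

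Of the 9 immediate-early genes, 3 were called higher and 4 lower in NC cells, where 33.7% and 39.3% of all genes tested were. Their median was 0.08. DUSP1, a phosphatase that acts on several MAP kinases, was at 6.86 and 6.65 FPKM in shCtrl and 113 and 125 in NC (log2 difference 3.95), and JUN and IER3 were higher as well (2.85 and 2.56). FOS was at 3.68 and 5.24 FPKM in shCtrl and 0.309 and 0.0776 in NC (-2.19), and JUNB, IER2 and ATF3 were also lower, at -1.08 to -0.58. All 5 other ERK output genes were called, where 73.0% of all genes tested were. LIF, a cytokine, was at 0.206 and 0.0107 FPKM in shCtrl and 86.2 and 92.1 in NC (log2 difference 6.35), CCND1, EPHA2 and EPHA4 were higher too (0.98, 1.94 and 2.64), and MYC was lower (-1.19). Each of these values passed the same adjusted test in limma. FOS, EPHA4 and LIF reached the 1 FPKM needed for testing in their higher group alone, so their calls add no support to the difference.

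The second question was what the members did when A3B was lowered in 92.1. No member was called, 0 of 10 (limma, adjusted p of 0.9994 or 0.9998), where 0.00862% of the 11605 genes tested were called, the 1 gene being A3B itself, and 0 members had an unadjusted p under 0.05. The median log2 difference was -0.11 over the members and 0.00 over all genes tested, with 9 members at values below 0, DUSP6 at -3.9e-05 among them, and 1, ETV5, above. Without shA3B replicate 1 the median was -0.031 and DUSP6, EGR1 and FOSL1 were above 0 as well. The changes ran from -0.23 for EGR1 to 0.09 for ETV5. The 95% confidence intervals lay between -0.51 and 0.38 for the 8 members other than EGR1 and FOSL1. That of EGR1 ran from -0.74 to 0.28 and that of FOSL1 from -0.49 to 0.41. With 2 libraries a group, changes within these intervals are not excluded, and the intervals are not limits of detection under the adjusted test. In SPRY2, SPRY4, SPRED1 and PHLDA1 both shA3B libraries were below both shCtrl libraries, 4 of 10 members, where 28.6% of all genes tested had groups that did not overlap, 13.3% lower and 15.3% higher.

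The pathway lists gave 0 called genes in 92.1 as well. Of 9 paralogs, 18 cascade genes, 8 immediate-early genes and 4 other output genes tested, the median log2 differences were -0.03, 0.06, -0.23 and 0.02. KSR1, a scaffold of RAF and MEK, was at 1.71 and 1.48 FPKM in shCtrl and 3.11 and 2.90 in shA3B (log2 difference 0.63, unadjusted p = 0.0057, adjusted p = 0.9994, limma), and JUNB was at -0.35 (unadjusted p = 0.041). The largest falls in value, none called, were -0.16 for MAP2K2 in the cascade, -0.35 for ZFP36 among the immediate-early genes, -0.31 for PHLDA2 among the paralogs and -0.24 for MYC among the other output genes. The largest rises in value, none called, were 0.14 for the paralog ETV1, 0.09 for the immediate-early gene ATF3 and 0.41 for EPHA4 among the other output genes. EPHA4 reached the 1 FPKM needed for testing in its shA3B libraries alone.

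The third question was what the members did when A3B was raised in MEL290. PHLDA1 and FOSL1 rose and EGR1 fell, 3 of 10 members called, where the calls made up 17.8% of 11611 tested genes, 10.3% for rises and 7.49% for falls. Of these, EGR1 was tested only because its NC libraries, the higher group, passed the filter. PHLDA1 went from 20.7 ± 0.194 to 40.9 ± 2.68 FPKM (SD, n = 2 each), a ratio of 1.98 (log2 difference 0.95, standard error 0.09, adjusted p = 0.0030, limma). The higher A3B OE library, at 42.78 FPKM, nearly met the 42.85 to 49.49 FPKM of 92.1. FOSL1, already the highest member in this line, went from 35.3 ± 0.851 to 56.3 ± 3.14 FPKM (SD, n = 2 each), a ratio of 1.60 (log2 difference 0.66, standard error 0.08, adjusted p = 0.0058, limma). EGR1 went from 1.58 ± 0.137 to 0.521 ± 0.0562 FPKM (SD, n = 2 each), so NC was 3.04 times A3B OE (log2 difference -0.76, standard error 0.15, adjusted p = 0.022, limma).

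EGR1 passed the filter of 1 FPKM in at least 2 libraries through its NC libraries alone, so its call adds no support to the difference. At such low FPKM the log2(FPKM + 1) scale understates its change. Its adjusted p (limma) was 0.0503 with the replicate number as a block, 0.10 when the first A3B OE library was left out and 0.089 when the second was, none under the threshold, and it was not tested without either NC library.

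The feedback inhibitors among the members were not called in MEL290, and their values lay on both sides of 0. Both A3B OE libraries were above both NC libraries for DUSP6, SPRY2 and SPRY4 and below them for DUSP4, and SPRED1 overlapped. The log2 differences were 0.33 for DUSP6 (95% confidence interval 0.02 to 0.64, adjusted p = 0.13, limma), 0.25 for SPRY2 (-0.04 to 0.53), 0.33 for SPRY4 (-0.14 to 0.80), 0.02 for SPRED1 (-0.35 to 0.38) and -0.33 for DUSP4 (-0.59 to -0.08, adjusted p = 0.082, limma). ETV4 and ETV5 were not called either, at 0.25 (-0.20 to 0.71) and -0.09 (-0.51 to 0.33), and their groups overlapped. In all, 7 of 10 members had groups that did not overlap, 5 higher and 2 lower in A3B OE, where 61.3% of all genes tested did, 31.5% higher and 29.7% lower. The median log2 difference was 0.25 over the members and 0.00 over all genes tested. Without NC replicate 1 the members' median was 0.15 and SPRY4 was at 0.11, and without NC replicate 2 SPRY4 was at 0.55. An exact two-sided permutation test of 1 value cannot give a p under 0.33 with 2 libraries against 2.

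**Figure D3:**
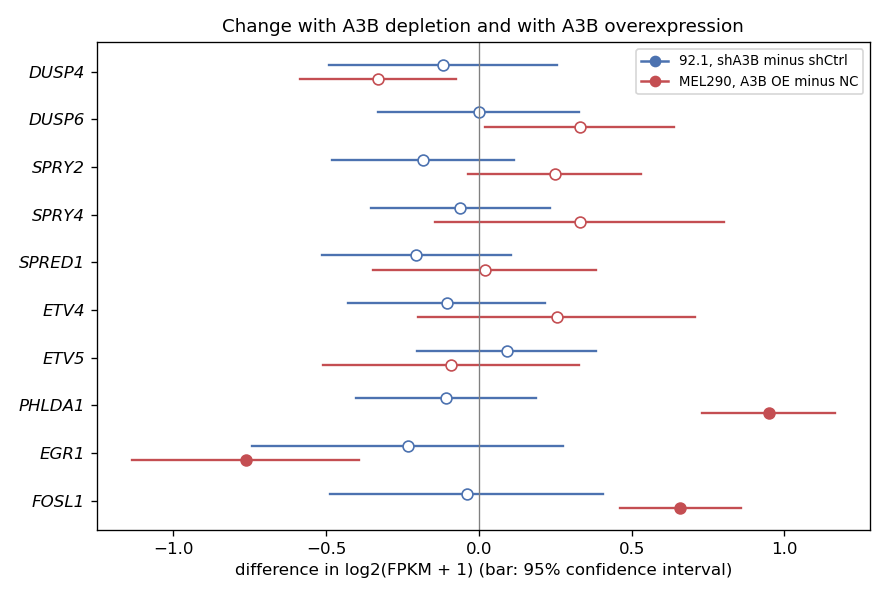
Difference in log2(FPKM + 1) of each member with A3B depletion in 92.1 (blue, shA3B minus shCtrl) and with A3B overexpression in MEL290 (red, A3B OE minus NC), with 95% confidence intervals, filled where called. The intervals of 92.1 all cross 0, and PHLDA1 at 0.95, FOSL1 at 0.66 and EGR1 at -0.76 are the filled points of MEL290.

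The other lists also held genes of both directions in A3B OE cells. Called were 1 of 9 paralogs, 2 of 18 cascade genes, 3 of 8 immediate-early genes and 1 of 5 other output genes tested. Over all genes tested the share was 17.8%. Of these 7 called genes RASA1 was the 1 still called without a filter on low FPKM, where the adjusted p (limma) of the others was 0.055 to 0.13. Among the immediate-early genes, 8 were tested, and JUNB rose from 11.3 and 12.9 to 19.5 and 17.5 FPKM (log2 difference 0.58, adjusted p = 0.022, limma), while DUSP1 fell from 113 and 125 to 75.2 and 63.0 (-0.78, adjusted p = 0.0073) and JUN from 80.5 and 74.5 to 62.9 and 57.9 (-0.35, adjusted p = 0.034). FOSL2, the paralog of FOSL1, was not called (log2 difference -0.15, adjusted p = 0.20, limma). JUN was no longer called without NC replicate 1 (adjusted p = 0.14), A3B OE replicate 1 (0.061) or A3B OE replicate 2 (0.12), without the trend (0.082) or with all 8 libraries in 1 fit (0.11), and JUNB not without A3B OE replicate 1 (0.10) or replicate 2 (0.068). FOS was under 0.5 FPKM in all 4 libraries and was not tested.

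In the cascade, 2 of the 18 genes tested were called, where 17.8% of all genes tested were. RASA1, a GTPase-activating protein that switches RAS off, rose from 11.9 and 12.1 to 20.9 and 22.6 FPKM (log2 difference 0.81, adjusted p = 0.0056, limma). RASGRP3, which switches RAS on, fell from 4.54 and 3.26 to 0.570 and 1.60 FPKM (-1.27, adjusted p = 0.027, limma), and was not called without A3B OE replicate 1 (-0.90, adjusted p = 0.091). Of 9 paralogs tested, ETV1, the third factor of the PEA3 group, rose from 8.61 and 8.84 to 11.7 and 15.3 FPKM (0.57, adjusted p = 0.045, limma), but was not called without A3B OE replicate 2 (0.39, adjusted p = 0.16), with the replicate number as a block (0.053), without the trend (0.0595), with quantile normalization (0.056), with libraries rescaled to an equal sum (0.056) or with all 8 libraries in 1 fit (0.087), and the lowest was PHLDA3 at -0.27 (adjusted p = 0.084). Of 5 other output genes, MYC fell from 121 and 121 to 87.7 and 72.8 FPKM (-0.60, adjusted p = 0.013, limma), and the highest was EPHA4 at 0.22, not called. The medians of the cascade, paralogs, immediate-early and other output genes were -0.03, -0.10, -0.0032 and -0.16.

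**Figure D4:**
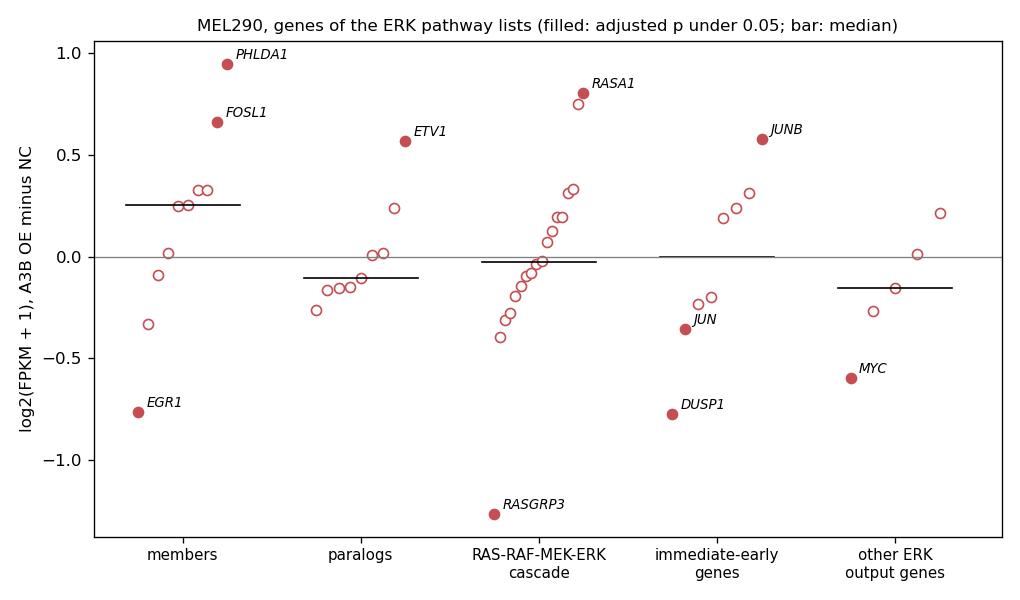
Difference in log2(FPKM + 1) between A3B OE and NC cells of MEL290 for the tested genes of 5 lists, 1 circle a gene, filled and named where called, with the median of each list as a bar. The filled points lie on both sides of 0 in the members, the cascade and the immediate-early genes, from RASGRP3 at -1.27 to PHLDA1 at 0.95.

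Whether the 2 lines responded differently was tested in 1 limma fit over all 8 libraries, as the log2 change in MEL290 (A3B OE minus NC) less that in 92.1 (shA3B minus shCtrl). Of the 10 members 1 was called, where 4.40% of 12697 genes were, 3.06% with a positive and 1.35% with a negative difference. PHLDA1 had a difference of 1.06 (standard error 0.14, adjusted p = 0.0094, limma). Both A3B OE libraries were above NC and both shA3B libraries below shCtrl, as held for 31.5% and 13.3% of the genes tested in each line. Since A3B itself went opposite ways, a gene tracking its level in each line also differs by this measure. With the 92.1 change turned to shCtrl minus shA3B, PHLDA1 had a difference of 0.84 (adjusted p = 0.016), and it was the 1 member called. FOSL1 had a difference of 0.70 (adjusted p = 0.051) and EGR1 of -0.53 (adjusted p = 0.32), so a call in MEL290 and none in 92.1 does not show that their responses differ. For PHLDA1 the adjusted p rose to 0.052 when the first A3B OE library was left out and to 0.051 when the second was. Among the other lists JUNB was the 1 gene called, with a difference of 0.92 (adjusted p = 0.031). The lowest and highest differences of the other lists, none of these called, included -1.35 for RASGRP3 and 0.76 for RASA1 in the cascade, -0.38 for SPRED3 and 0.43 for ETV1 among the paralogs, -0.56 for DUSP1 and, next after JUNB, 0.59 for ZFP36 among the immediate-early genes and -0.41 for LIF among the other output genes, all 5 of which were below 0.

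Over the 4 groups, the order of the levels was the same for DUSP6, SPRY2, SPRY4, SPRED1, ETV4 and PHLDA1, from shCtrl through shA3B and A3B OE to NC. The 2 groups of 92.1 overlapped for DUSP4, DUSP6, ETV4, ETV5, EGR1 and FOSL1. The 2 groups of MEL290 overlapped for SPRED1, ETV4 and ETV5. For EGR1 the shCtrl, NC and shA3B libraries ran into each other and A3B OE lay below all 3 groups. The mean log2(FPKM + 1) over the members was 4.34 to 4.50 in the 4 libraries of 92.1, 2.91 and 2.99 in NC and 3.09 and 3.13 in A3B OE. The 3 other genes whose log2(FPKM + 1) was most like this mean over the 8 libraries were SLC6A15, JAG2 and NES, with Pearson's r of 0.9995, 0.9992 and 0.9990. SLC6A15 was at 28.9 to 36.0 FPKM in 92.1 and 5.50 to 7.58 in MEL290. The libraries fall into 2 clusters by cell line, and 2797 of 12687 genes had an r of at least 0.95, so this likeness mostly restates the line difference.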

How the data were processed

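The deposited FPKM values, 1 per gene symbol and library, were made by the authors with Cufflinks from STAR alignments to GRCh38, over Ensembl release 75 genes, according to the study's methods and processing notes, which give no versions. FPKM is normalized, so no count test was run, and Cuffdiff, which the study used, needs the reads. Genes with at least 1 FPKM in at least 2 of the libraries fitted were tested as log2(FPKM + 1) with limma 3.58.1 (lmFit, eBayes with a trend) in R 4.3.3, two-sided, with Benjamini-Hochberg adjustment over all genes tested and a threshold of 0.05, in each cell line alone, between the controls, and over all 8 libraries for the difference of effects. The test was tested on data simulated from the fitted means and spreads. Changes were added to better expressed genes alone, so this does not check the test at low FPKM. All 10 members passed the filter in every comparison. Positions are from GENCODE release 44 on GRCh38. Members and lists (14 paralogs, 18 cascade genes, 9 immediate-early genes, 5 other output genes, and markers) were chosen with earlier results of these data known. All members are named, and of the lists the called genes and the largest change in each direction, apart from a few genes of the lists that are not reported here by name. Alternatives changed the trend, scaling, filter, pseudocount, minimum fold, samples, replicate block and sign convention, and left out each library. Values of 0 can be failed estimates. FPKM gives no counting error.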

Additional observations from a re-analysis of the deposited data

Results flagged for a closer look

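PHLDA1 was singled out because its response differed between the cell lines in the test of the difference itself. The log2 change in MEL290, A3B OE minus NC, less that in 92.1, shA3B minus shCtrl, was 1.06 on the log2(FPKM + 1) scale (adjusted p = 0.0094, limma over 8 libraries). PHLDA1 was higher in 2 of 2 A3B OE libraries and lower in 2 of 2 shA3B libraries, as held for 31.5% and 13.3% of the genes tested in each line. Its change in 92.1 alone was -0.11 and was not called. Cell line, means of perturbation and direction of the A3B change cannot be told apart in this design.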

How the results depend on the processing

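Of the values of single members under the alternatives, 546 kept their direction and their side of the threshold, 9 no longer passed, 3 newly passed and 17 changed sign. In MEL290, 0 of the 3 members remained called with a minimum log2 fold change of 1. The count was 2 with the replicate block (EGR1 lost, adjusted p = 0.0503), 2 with each library left out and 2 with at least 1 FPKM in every library. In the difference of effects, 2 members in place of 1 were called without the trend, with quantile normalization and with upper quartile scaling, FOSL1 being added, and 0 or 1 when any single library was dropped (0 without either A3B OE library), while the members' median of 0.34 lay between 0.20 and 0.44. The replicate block changed no other call of a member. Over all genes, the count of 1 in 92.1 was 37 with the block, 2 without the trend, 0 without a filter on low FPKM and 2 to 9 with a library dropped. The count of 2065 in MEL290 was 915 without a filter (genes at 0 in every library aside), 314 with the minimum fold and 809 to 1979 with a library dropped, and that of 9021 between the controls was 4959 with the minimum fold. For the difference of effects, 559 became 223 with the block, 328 with the stricter filter, 287 with the minimum fold and 36 to 286 with a library dropped. The labels name nothing that a replicate number shares. Over the genes tested, the difference of replicate 1 from replicate 2 was correlated between the 2 groups of a line. The correlation was 0.19 in 92.1 and -0.03 in MEL290. The causes were not tested.

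DUSP6 in 92.1, at -3.9e-05, turned to 0.018 with quantile normalization, 0.033 with upper quartile scaling, 0.0195 rescaled to an equal sum per library and 0.00011 with a pseudocount of 0.1, and SPRED1 in MEL290 to -0.011 with quantile normalization. With a library left out, which leaves 1 library assumed to vary like the others, values in 92.1 ran from -0.33 to 0.094 for DUSP4, -0.14 to 0.14 for DUSP6, -0.27 to 0.061 for ETV4, -0.50 to 0.037 for EGR1 and -0.093 to 0.024 for FOSL1, in MEL290 from -0.16 to 0.20 for SPRED1 and -0.30 to 0.12 for ETV5, between the controls from -0.25 to 0.035 for EGR1, and in the difference of effects from -0.39 to 0.026 for ETV5. Low FPKM limits EGR1, and ETV4 in MEL290.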
